A study of Mus musculus with 8 samples.

Results

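The cytosolic translation elongation factors were examined in mouse neurons, together with the kinase of elongation factor 2 and with Tpt1, whose mRNA is a classical target of growth-dependent translation. The set was a list of 8 gene symbols, namely Eef1a1, Eef1a2, Eef1b2, Eef1d, Eef1g, Eef2, Eef2k and Tpt1, out of 18301 genes. All 8 were among the 12898 genes with enough counts to be tested. Neurons were differentiated in vitro from the mouse embryonic stem cell line CGR8 and were harvested at day 8 in culture. One group was labelled as a double knockout of Eif4g1 and Eif4g3 (DKO), which encode scaffold proteins that bring the ribosome to capped mRNA, and the other as wildtype (WT). Both genotypes received cycloheximide at 100 µg/ml for 5 minutes, which arrests elongating ribosomes. Footprints, the mRNA fragments that ribosomes protect, and total RNA were sequenced for both genotypes, with 2 libraries in each of the 4 groups. The culture codes in the labels differ between the replicates, so a DKO or WT value rests on 2 cultures, and nothing in the labels states whether the cultures of a genotype come from separate clones. WT replicate 1 carries a coded culture name of the kind that the DKO cultures carry, and only WT replicate 2 is named WT. Both were grouped by their titles and genotype labels, which say wildtype. P-values therefore measure the spread between these libraries.

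Elongation runs in a cycle. The GTPase eEF1A brings aminoacyl-tRNA to the ribosome and is recharged with GTP by the eEF1B complex, whose subunits are encoded by Eef1b2, Eef1d and Eef1g, and eEF2 then moves the ribosome along by a codon. eEF2 is inhibited when its calcium- and calmodulin-dependent kinase, eEF2K, phosphorylates it, a step much studied at synapses. Most cells use the eEF1A1 isoform, whereas mature neurons and muscle switch to eEF1A2, a close relative encoded by a separate gene. The mRNAs of elongation factors, of ribosomal proteins and of Tpt1 belong to the TOP class, which begin with a C followed by a run of pyrimidines at the cap and whose translation follows mTORC1 activity.

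The libraries held 10490535 to 18381021 estimated counts in DKO footprints, 14450410 to 19753419 in WT footprints, 15862034 to 44786643 in DKO RNA and 14762047 to 22352224 in WT RNA. The targeted gene Eif4g1 stood at 125.4 and 304.9 counts scaled to library size (CPM) in DKO RNA, against 288.3 and 279.9 CPM in WT RNA, so only DKO replicate 1 was low. Eif4g3 stood at 102.9 and 138.5 CPM in DKO RNA, against 120.1 and 128.3 CPM in WT RNA. Whole-gene counts do not show whether a part of a gene is deleted. The labels call the cells cortical and glutamatergic. The pan-neuronal marker Tubb3 had 831.6 and 1031 CPM in DKO RNA, against 1200 and 949.6 CPM in WT RNA, and the glutamate transporter gene Slc17a6 had 224.0 and 180.4 CPM, against 166.3 and 78.04 CPM. The cortical markers Tbr1 and Emx1 and the glutamate transporter gene Slc17a7 were at or below 1.05 CPM in every RNA library, while the GABAergic marker Gad1 stood at 85.8 to 107 CPM. The 3 muscle markers in the table summed to at most 0.625 CPM in every library, so the muscle markers that could accompany Eef1a2 were near 0. WT replicate 2 stood apart in its fibroblast, mural and endothelial markers, the RNA of which summed to 259.9 and 94.96 CPM in DKO, against 199.5 CPM in WT replicate 1 and 522.9 CPM in WT replicate 2. Progenitor and radial glia markers were lower in both DKO cultures, with RNA sums of 2261 and 2274 CPM in DKO, against 2632 and 2900 CPM in WT, and footprint sums of 3751 and 4148 CPM in DKO, against 4676 and 5102 CPM in WT. None of the 7 tested was called, and all 7 had log2 fold changes below 0 in both assays (medians -0.31 in RNA and -0.29 in footprints). The RNA of oligodendrocyte-lineage markers summed to 367.4 and 412.2 CPM in DKO, against 539.9 and 639.9 CPM in WT, and that of proliferation markers to 235.4 and 272.3 CPM in DKO, against 302.6 and 383.8 CPM in WT. The part of these marker differences in the values of the elongation genes was not tested. In bulk RNA, a change in the number of cells of a type cannot be told apart from a change in RNA per cell.

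Stretches near the annotated 5′ ends of the mRNAs are shown for 5 genes, because the TOP class is defined at the cap. The lines begin at base 44 of Eef1a1-201, 7 of Eef1a2-201, 14 of Eef1d-204, 6 of Eef2-201 and 25 of Tpt1-201. None of them holds the first base, so the sequence next to the cap is not shown. Each line gives 30 bases of the leading coding isoform in GENCODE M21 on GRCm38, 5′ to 3′, and capitals mark the longest run of pyrimidines that starts with C within the first 100 bases.
Eef1a1-201, chr9:78481652-78481681, minus strand: cttggacgttCTTTTTCgcaacgggtttgc
Eef1a2-201, chr2:181156979-181157008, minus strand: ctcactggttCTCTCCCTCgctccggtgca
Eef1d-204, chr15:75909293-75909322, minus strand: tgcgcgggcgCCCTCCCTCTCCTTTgcagt
Eef2-201, chr10:81176636-81176665, plus strand: cgtcagcggtCTCTTCCgccgcagccgccg
Tpt1-201, chr14:75845117-75845146, plus strand: ccgcacaccgCCCCCgttgccccgcgcacc

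In the 5 isoforms shown the run began at base 54 in Eef1a1-201 with 7 bases, at base 17 in Eef1a2-201 with 9 bases, at base 24 in Eef1d-204 with 15 bases, at base 16 in Eef2-201 with 7 bases and at base 35 in Tpt1-201 with 5 bases. The starts of other isoforms and of the other genes of the set are not described here, so the lines do not say how many of the 8 genes begin with such a run. A run of 5 or more bases within the first 100 was found in 72.5% of tested genes. One of 7 or more was found in 35.2%, whereas 2.1% held one as long as that of Eef1d-204. The first base of an annotated transcript need not be the base used in these neurons.

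Levels are given next for each gene in every library, as TMM-scaled CPM, with footprints before RNA. Eef1a1 (chromosome 9, 78478449 to 78489151) was the most abundant of the 8. Its footprints were 5379 and 5343 CPM in DKO, against 6047 and 5186 CPM in WT. Its RNA was 6771 and 5320 CPM in DKO, against 5692 and 5222 CPM in WT. The genotypes overlapped in both assays, and the RNA of DKO replicate 1 stood above the other RNA libraries. Eef1a2 (chromosome 2, 181147653 to 181157014), the neuronal and muscle paralog, had footprints of 513.9 and 573.8 CPM in DKO, against 530.0 and 435.8 CPM in WT. Its RNA was 247.6 and 246.5 CPM in DKO, against 254.7 and 220.5 CPM in WT. Here too the genotypes overlapped, and every footprint library lay above every RNA library.

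Among the genes of the exchange-factor complex, Eef1b2 (chromosome 1, 63176825 to 63180486), which encodes a catalytic subunit, had footprints of 661.6 and 623.3 CPM in DKO, against 671.7 and 679.1 CPM in WT. Its RNA was 496.2 and 427.2 CPM in DKO, against 465.8 and 439.6 CPM in WT. Both DKO libraries lay below both WT libraries in footprints, by less than the spread between the DKO libraries, and the genotypes overlapped in RNA. Eef1d (chromosome 15, 75894205 to 75909556) encodes the other catalytic subunit. It had footprints of 209.6 and 183.1 CPM in DKO, against 199.3 and 229.3 CPM in WT, and RNA of 98.38 and 101.7 CPM in DKO, against 104.3 and 105.8 CPM in WT. In RNA its DKO libraries lay below both WT libraries, and in footprints the genotypes overlapped. Eef1g (chromosome 19, 8967041 to 8978479), the structural subunit, had footprints of 563.8 and 550.0 CPM in DKO, against 534.2 and 511.6 CPM in WT. Its RNA was 716.5 and 635.5 CPM in DKO, against 693.0 and 617.0 CPM in WT. It was the only subunit gene with fewer footprint than RNA CPM in every culture.

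The translocase gene Eef2 (chromosome 10, 81176631 to 81182498) had footprints of 1846 and 1631 CPM in DKO, against 1591 and 1563 CPM in WT. Its RNA was 1955 and 1633 CPM in DKO, against 1638 and 1492 CPM in WT. DKO replicate 1 was highest in both assays. The kinase gene Eef2k (chromosome 7, 120842831 to 120907450) was the least abundant, with footprints of 41.84 and 38.12 CPM in DKO, against 41.24 and 40.11 CPM in WT. Its RNA was 46.82 and 50.84 CPM in DKO, against 46.72 and 50.33 CPM in WT. The genotypes overlapped in both. Tpt1 (chromosome 14, 75845093 to 75848525) encodes the translationally controlled tumour protein. It had footprints of 1028 and 965.8 CPM in DKO, against 959.5 and 958.2 CPM in WT, and RNA of 554.3 and 422.0 CPM in DKO, against 421.2 and 438.9 CPM in WT. Its footprints exceeded its RNA CPM in all 4 cultures, and only the RNA of DKO replicate 1 stood apart from the other 3 RNA libraries.

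**Figure D1:**
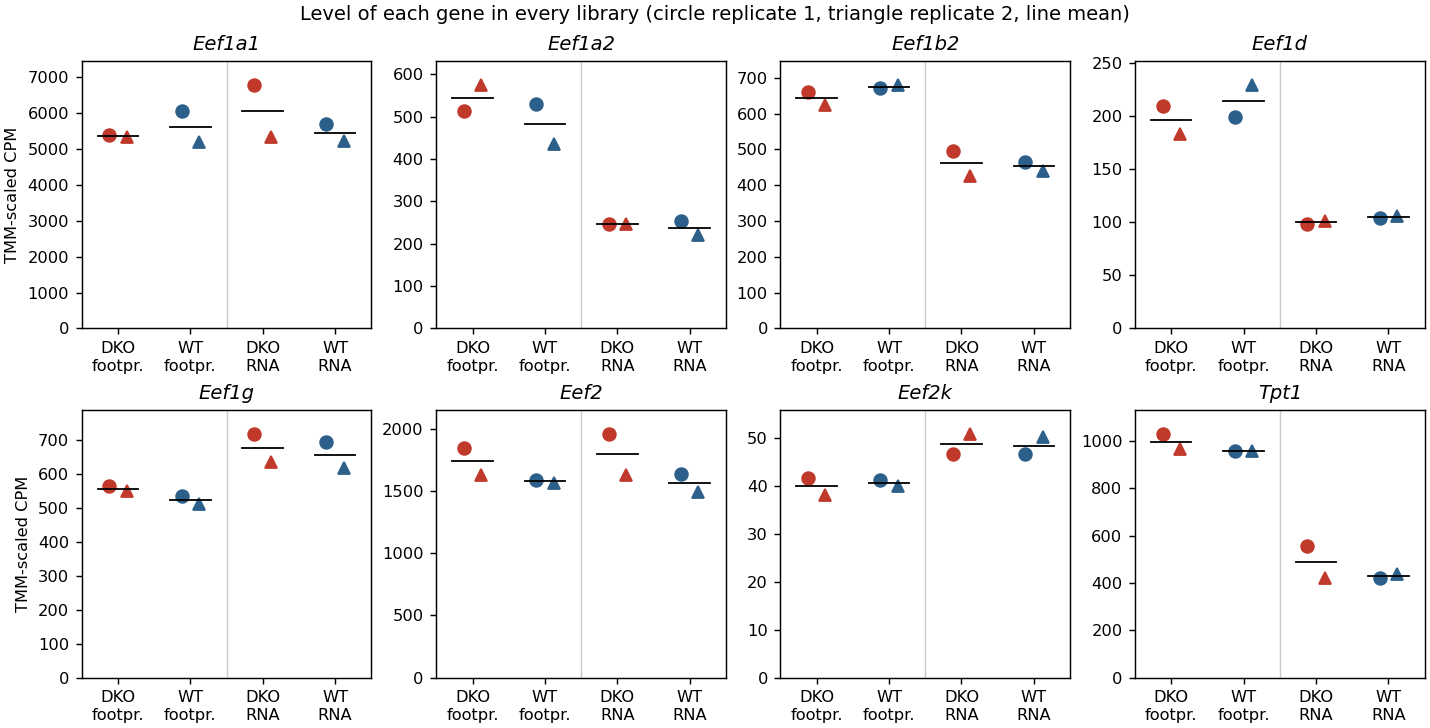
TMM-scaled CPM (vertical axis, from 0, with its own range in each panel) of the 8 genes in every library, DKO left of WT, footprints left of RNA. Circles are replicate 1, triangles replicate 2 and lines group means. Footprints lie above RNA in Eef1a2, Eef1b2, Eef1d and Tpt1, and the genotypes lie close together in all panels.

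The first comparison asked whether the footprints or the RNA of the elongation genes differed between neurons labelled DKO and WT. None of the 8 passed at an adjusted p of 0.05 in footprints, in RNA or in translational efficiency, the footprints relative to RNA (edgeR quasi-likelihood test, adjusted over all tested genes), and none had an unadjusted p under 0.05. Few genes of any kind passed: 0.00775% of all tested genes in footprints (1 gene), 0.0155% in RNA (2 genes) and 0% in translational efficiency, where 110 genes had an unadjusted p under 0.05, limma-voom called 0 genes and DESeq2 called 1. DESeq2 called 5 genes in footprints and 13 in RNA, and limma-voom 1 and 3. These counts turn on 1 culture: without both libraries of WT replicate 1, edgeR called 520 genes in footprints and 473 in RNA, with 1 WT culture left. None of the 8 genes was among them, the smallest adjusted p being 0.219 for Eef1a2 in footprints (0.34 ± 0.14, edgeR). The log2 fold changes, DKO over WT, of the 8 genes lay between -0.13 and 0.17 in footprints, between -0.07 and 0.20 in RNA and between -0.22 and 0.11 in translational efficiency. Their medians were 0.01, 0.05 and -0.06, beside 0.00, 0.00 and 0.01 over all tested genes. The standard error (SE) of a single value was 0.09 to 0.16 in footprints and in RNA. The SE is not a detection limit: Eef2 RNA at 0.20 ± 0.13 had an unadjusted p of 0.17 (edgeR). Differences larger than their SE can therefore also go uncalled with 2 cultures a genotype.

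By gene, the log2 fold change in footprints was -0.07 ± 0.16 (SE) for Eef1a1 and 0.17 ± 0.13 for Eef1a2 (adjusted p = 0.966 and 0.862, edgeR). For the subunit genes it was -0.07 ± 0.11 for Eef1b2, -0.13 ± 0.10 for Eef1d and 0.09 ± 0.11 for Eef1g. It was 0.14 ± 0.13 for Eef2, -0.03 ± 0.10 for Eef2k and 0.06 ± 0.13 for Tpt1. Every one of these lies within 1.5 SE of 0. In RNA the largest were Eef2 at 0.20 ± 0.13 (adjusted p = 0.872, edgeR) and Tpt1 at 0.18 ± 0.13 (adjusted p = 0.878, edgeR). In translational efficiency they were Eef1a1 at -0.22 ± 0.22 and Tpt1 at -0.13 ± 0.19 (adjusted p = 1 for both, edgeR).

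The groups did not overlap in 4 of the 8 genes in footprints. Eef1g, Eef2 and Tpt1 had both DKO libraries above the WT range, as 16.3% of all tested genes did, and Eef1b2 lay lower, as 16.2% did. In RNA 1 gene, Eef1d, lay lower in both DKO libraries (18.9% of tested genes) and 0 lay higher (19.6% of tested genes). The RNA of DKO replicate 1, the most deeply sequenced library, was the highest of the 4 RNA libraries for 5 of the 8 genes, Eef1a1, Eef1b2, Eef1g, Eef2 and Tpt1. Without it the RNA log2 fold change was -0.03 for Eef1a1, -0.07 for Eef1b2, -0.03 for Eef1g, 0.07 for Eef2 and -0.01 for Tpt1. Whether depth had a part in this was not tested.

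**Figure D2:**
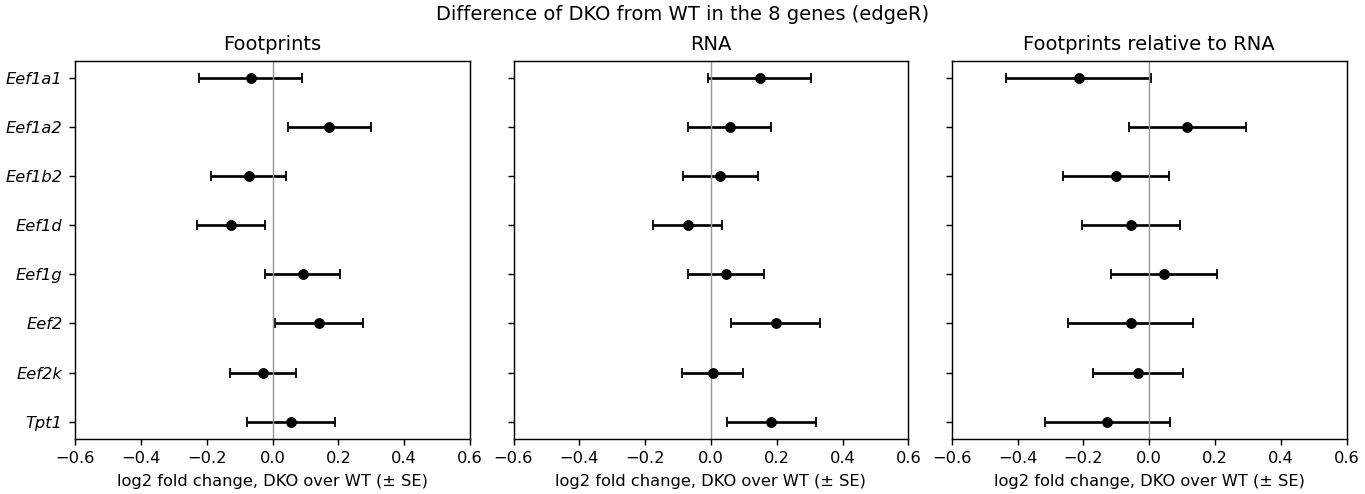
Log2 fold change, DKO over WT, with its SE (horizontal axis) of each gene in footprints, in RNA and in footprints relative to RNA, from edgeR with n = 2 libraries in each group. No gene passed the test in any panel, and all values lie between -0.22 and 0.20.

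The second comparison set footprints against RNA within each genotype. TMM scaling over all 8 libraries put the median gene at -0.01 in DKO and -0.02 in WT on the log2 scale, so a value says how a gene stood relative to the typical gene. Of the 8 genes, 4 were higher in footprints and 2 were lower, in DKO and in WT alike (edgeR, adjusted p under 0.05). In all tested genes, 32.1% were higher and 33.3% lower in DKO, and 31.4% were higher and 33.8% lower in WT, so the count of 6 called out of 8 is near the share of all genes called. The median of the 8 genes was 0.22 in DKO and 0.31 in WT.

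Eef1a2 had 2.2 times as many footprint as RNA CPM in DKO and 2.03 times in WT. Its log2 ratio by culture was 1.05 and 1.22 in DKO, against 1.06 and 0.98 in WT, and the fitted values were 1.14 ± 0.13 (adjusted p = 9.78e-06, edgeR) and 1.02 ± 0.13 (adjusted p = 2.3e-05, edgeR). The ratio was close in all 4 cultures. Tpt1 had ratios of 0.89 and 1.19 in DKO, against 1.19 and 1.13 in WT (fitted 1.03 ± 0.14, adjusted p = 3.75e-05, and 1.16 ± 0.14, adjusted p = 1.5e-05, edgeR). Its lowest ratio was that of DKO replicate 1. When only counts on protein-coding isoforms were kept the direction of Tpt1 turned, to -4.79 in DKO and -5.82 in WT (adjusted p = 1.18e-06 and 6.31e-07, edgeR). Nearly all its footprints had been assigned to other isoforms, as described with the isoform shares. Eef1d had ratios of 1.09 and 0.85 in DKO, against 0.934 and 1.116 in WT (fitted 0.97 ± 0.11, adjusted p = 7.73e-06, and 1.03 ± 0.11, adjusted p = 5e-06, edgeR).

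Eef1b2 stood less far above its RNA, at ratios of 0.41 and 0.55 in DKO, against 0.53 and 0.63 in WT (fitted 0.48 ± 0.11, adjusted p = 0.00301, and 0.58 ± 0.11, adjusted p = 0.000833, edgeR). With protein-coding isoforms alone its direction turned as well, to -0.695 in DKO and -0.691 in WT (adjusted p = 0.00141 and 0.00146, edgeR). Without both libraries of DKO replicate 2 its DKO value was 0.42 (adjusted p = 0.0596, edgeR). Eef1g and Eef2k were lower in footprints, at -0.28 ± 0.11 (adjusted p = 0.0493) and -0.29 ± 0.10 (adjusted p = 0.0203) in DKO, against -0.32 ± 0.11 (adjusted p = 0.0263) and -0.26 ± 0.10 (adjusted p = 0.0353) in WT, all by edgeR. Both lay close to the threshold. The DKO call of Eef1g was lost without the footprints of DKO replicate 1 (-0.28), DKO replicate 2 (-0.25), WT replicate 1 (-0.27) or WT replicate 2 (-0.27), and without the RNA of DKO replicate 1 (-0.19). Its WT call was lost without the footprints of WT replicate 1 (-0.36) or WT replicate 2 (-0.28), and without the RNA of WT replicate 1 (-0.20). The DKO call of Eef2k was lost without the footprints (-0.21) or the RNA (-0.25) of DKO replicate 2. Its WT call was lost without the footprints of WT replicate 1 (-0.28) or WT replicate 2 (-0.23), and without the RNA of WT replicate 1 (-0.27), WT replicate 2 (-0.19), DKO replicate 1 (-0.23) or DKO replicate 2 (-0.23). Other settings also ended these calls. With RLE scaling Eef1g was not called in DKO (adjusted p = 0.0711, edgeR) nor Eef2k in WT (adjusted p = 0.0519, edgeR). Without a filter on low counts the adjusted p was 0.13 in DKO and 0.0835 in WT for Eef1g, and 0.0592 and 0.123 for Eef2k (edgeR). With protein-coding isoforms alone it was 0.269 and 0.201 for Eef1g, and 0.0602 and 0.13 for Eef2k (edgeR). By DESeq2 Eef2k was not called (adjusted p = 0.0723 in DKO and 0.137 in WT). The direction of both genes was the same in each of these settings.

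Eef1a1 and Eef2 were not called in either genotype. Eef1a1 stood at -0.17 ± 0.16 in DKO and 0.04 ± 0.16 in WT (adjusted p = 0.347 and 0.829, edgeR), and DKO replicate 1 was the lowest culture at -0.33, against 0.01 in DKO replicate 2. With protein-coding isoforms alone Eef1a1 was called lower, at -2.43 in DKO and -1.81 in WT (adjusted p = 5.61e-06 and 3.32e-05, edgeR). Eef2 stood at -0.05 ± 0.13 in DKO and 0.01 ± 0.13 in WT (adjusted p = 0.781 and 0.949, edgeR). Eef1a2 lay above its paralog Eef1a1 by this measure in every culture, a difference that was not tested.

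**Figure D3:**
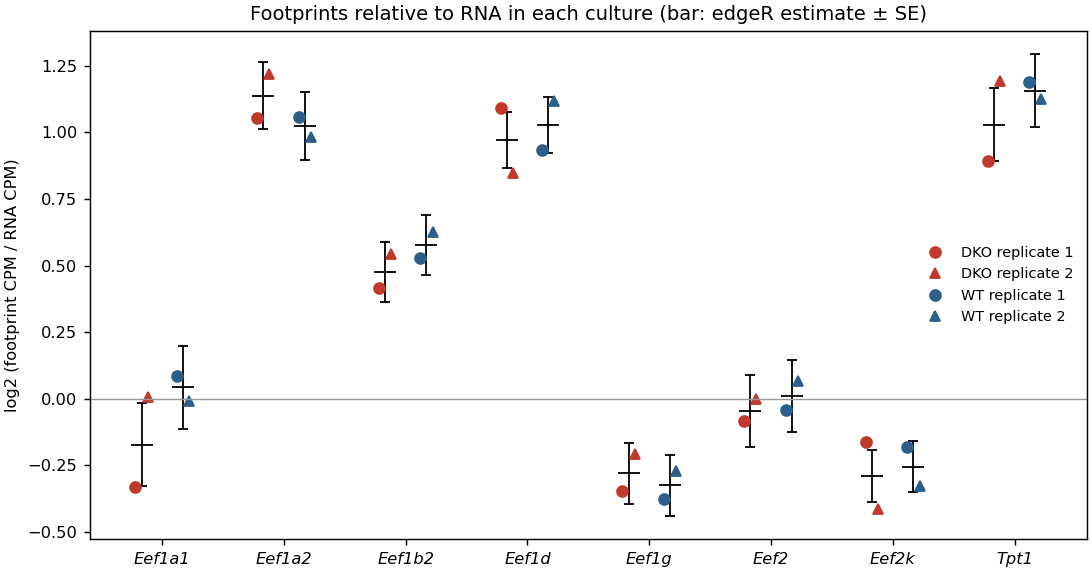
Log2 ratio of footprint CPM to RNA CPM (vertical axis) of each gene in the 4 cultures, DKO left of WT. Circles are replicate 1, triangles replicate 2, and bars the edgeR estimate with its SE. Eef1a2, Eef1d and Tpt1 lie near 1, Eef1b2 near 0.5, and Eef1a1 and Eef2 near 0.

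Footprints come from the coding sequence, whereas RNA reads come from the whole transcript, so a gene with long untranslated regions has fewer footprints for the same RNA. Coding sequence made up 77.5% of the transcript length of Eef1a1, 66.7% of Eef1a2, 49.2% of Eef1b2, 82.6% of Eef1d, 72.6% of Eef1g, 83.3% of Eef2, 48.4% of Eef2k and 57.6% of Tpt1, against a median of 50.5% over 12762 tested genes. Lengths were weighted by the RNA counts of the isoforms, over all isoforms for the transcript length but only over isoforms with a coding sequence for the coding length. The transcript length of Tpt1, 896.4 bases, thus includes Tpt1-204, which has 661 bases and no coding sequence. Its coding mRNA Tpt1-201 has 516 coding bases in 1169, so 57.6% is not the coding part of that mRNA. The Tpt1 values per length given below rest on this weighting. When footprints were set per coding length and RNA per transcript length, 4 of the 8 genes were higher and 3 lower in each genotype. In all tested genes 37.9% were then higher and 30.7% lower in DKO, and 37.4% were higher and 31% lower in WT. Eef1a1 was then lower in footprints, at -0.79 ± 0.16 in DKO (adjusted p = 0.000765, edgeR) and -0.58 ± 0.16 in WT (adjusted p = 0.00612, edgeR). Eef2 was lower too, at -0.77 and -0.71 (adjusted p = 0.000322 and 0.000571, edgeR), and so was Eef1g, at -0.80 and -0.85. These 3 therefore lay below the typical gene per coding length, while the CPM ratio had put Eef1a1 and Eef2 level with it.

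The 4 genes above the typical gene were the same on this scale. Eef1a2 stood at 0.74 in DKO and 0.62 in WT, Tpt1 at 0.84 and 0.97, Eef1b2 at 0.52 and 0.62, and Eef1d at 0.26 and 0.32 (adjusted p between 5.17e-05 and 0.0413, edgeR). Eef2k was no longer called, at -0.23 and -0.19 (adjusted p = 0.0552 and 0.0954, edgeR). The gene median on this scale was 0.09 in DKO and 0.08 in WT. Scaling each assay by TMM on its own moved the median of all genes to -0.24 in DKO and -0.25 in WT, and gave 3037 higher and 5584 lower calls in DKO, where the common scaling gave 4145 and 4289. With that scaling Eef1b2 was not called in DKO (0.24, adjusted p = 0.0747, edgeR) and Eef1a1 was called lower there (-0.41, adjusted p = 0.0341, edgeR).

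Levels of different genes can be compared per length, as counts per kilobase of transcript in RNA and per kilobase of coding sequence in footprints, scaled to a sum of 1000000. On this scale Eef1a1 RNA stood at 8238 and 6313 in DKO, against 6630 and 6037 in WT, the second most abundant mRNA of all genes in each of the 4 RNA libraries (rank 2). Eef2, Tpt1 and Eef1b2 followed and overlapped, with Eef2 RNA per length at 1374 and 1120 in DKO, against 1103 and 996.6 in WT. Eef1g came below them at 861.9 and 745.5 in DKO, against 798.1 and 705.3 in WT. Eef1a2 RNA per length was 258.0 and 250.6 in DKO, against 254.2 and 218.4 in WT, with ranks between 536 and 605. Eef1d came next at 129.9 to 132.7 over the 4 libraries, and Eef2k was last at 21.78 to 24.15. Apart from Eef2, Tpt1 and Eef1b2, no neighbours in this RNA order overlapped across the 4 libraries.

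In footprints per coding length the order was different. Eef1a1 was again first, at 2930 and 2907 in DKO, against 3222 and 2855 in WT, but its ranks among all genes were 15 to 22. Tpt1 came next at 1502 and 1409 in DKO, against 1372 and 1415 in WT, with ranks of 75 to 88, followed by Eef1b2 at 1091 and 1027 in DKO, against 1084 and 1133 in WT. Eef2 stood at 540.7 and 477.1 in DKO, against 455.9 and 462.7 in WT, with ranks of 345 to 422, whereas its RNA ranked 82 to 111. Eef1g at 297.4 to 324.2 and Eef1a2 at 239.1 to 311.1 overlapped as neighbours in footprints. The kinase gene was far below its substrate in both assays, at 13.3 to 14.62 in footprints. The coding length used for Eef1b2, 457 bases, includes isoforms annotated for nonsense-mediated decay, whose annotated reading frames are shorter than the 552 bases of Eef1b2-209.

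The switch between the eEF1A paralogs was described by the share of Eef1a2 in the sum of both genes, per length. In RNA the share was 3.04% and 3.82% in DKO (mean 3.43% ± 0.552, SD, n = 2), against 3.69% and 3.49% in WT (3.59% ± 0.142, SD, n = 2). At day 8, the only day sampled, Eef1a1 mRNA was thus in large excess in both genotypes. A change over time was not measured. These are bulk values, and the cultures also held RNA of progenitor, astrocyte and fibroblast markers. The share within neurons alone was not measured. In footprints the share was 8.69% and 9.67% in DKO (9.18% ± 0.69, SD, n = 2), against 8.03% and 7.73% in WT (7.88% ± 0.217, SD, n = 2). The footprint share lay above the RNA share in all 4 cultures. With protein-coding isoforms alone the footprint share was 30.85% and 34.31% in DKO, against 22.52% and 26.27% in WT. That setting drops the 69.9% to 79.5% of Eef1a1 footprints assigned to isoforms without a coding sequence. It drops none of Eef1a2, which has 1 isoform. Between genotypes the share differed by 1.3 percentage points in footprints, with both DKO cultures above both WT cultures (exact 2-sided permutation test, p = 0.333, the smallest p that 2 against 2 libraries allow), and by -0.164 percentage points in RNA (exact 2-sided permutation test, p = 1). The coding sequences of the paralogs were identical at 1110 of 1389 aligned bases (79.9%). Of their coding stretches of 28 bases, about a footprint long, 0% occurred in both. Shorter footprints were not examined, and the untranslated regions, which RNA reads also cover, were not compared with each other.

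**Figure D4:**
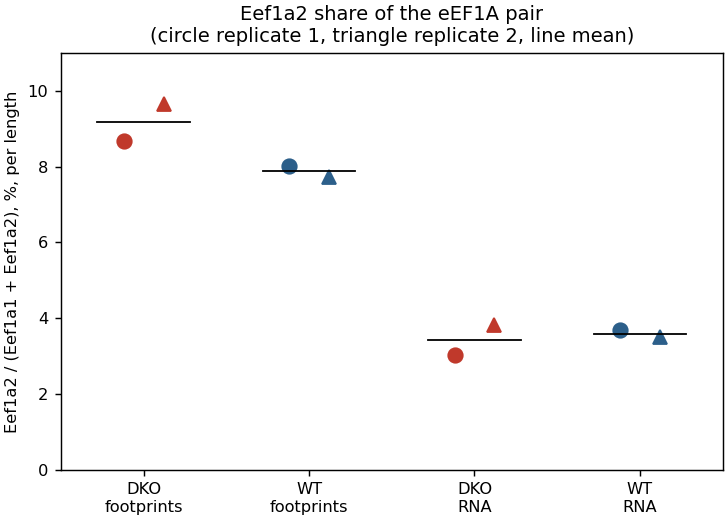
Share of Eef1a2 in the sum of Eef1a1 and Eef1a2, in per cent, per coding length in footprints and per transcript length in RNA (vertical axis), in each library, DKO left of WT. Circles are replicate 1, triangles replicate 2 and lines means. Shares run from 7.73% to 9.67% in footprints and from 3.04% to 3.82% in RNA.

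The counts of a gene above are sums over isoforms, and how the deposited table divided them differed between the assays. Eef1a1-201, the full-length mRNA of 1794 bases with 1386 coding bases, held 99.3% and 98.9% of Eef1a1 RNA in DKO, against 98.9% and 99.2% in WT. It held only 3.9% and 8.5% of Eef1a1 footprints in DKO, against 5.2% and 3.9% in WT. Isoforms annotated without a coding sequence held 78.7% and 79.5% of Eef1a1 footprints in DKO, against 69.9% and 76.5% in WT, led by Eef1a1-205, a retained-intron isoform. For Tpt1 such isoforms held 99.1% to 99.7% of footprints over the 4 libraries, and 48.6% to 57.4% of RNA. Over all genes they held 11.04% to 11.54% of footprints and 7.57% to 7.86% of RNA. Every stretch of 28 bases in the coding sequence of Eef1a1-201 and of Tpt1-201 (100% each) also occurs in such an isoform of the same gene in the table, so a footprint in these coding sequences cannot be assigned to 1 isoform, and the gene sum is the value that can be read. In Eef1b2, isoforms annotated for nonsense-mediated decay led in footprints, Eef1b2-205 at 49.2% to 52.8%, against 28.8% to 32.8% in RNA.

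Eef1d has a long form, Eef1d-204 with 1980 coding bases, and short forms led by Eef1d-207 with 771. The long form held 47.3% and 49.7% of Eef1d RNA in DKO, against 46.0% and 42.5% in WT. In footprints it held 24.3% and 33.1% in DKO, against 24% and 19.7% in WT, and Eef1d-207 led there at 48.6% to 55.2% over the 4 libraries. These shares are estimates from short reads and were not tested between genotypes. Eef1a2 and Eef2 each had 1 isoform in the table, so their values do not depend on this division.

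**Figure D5:**
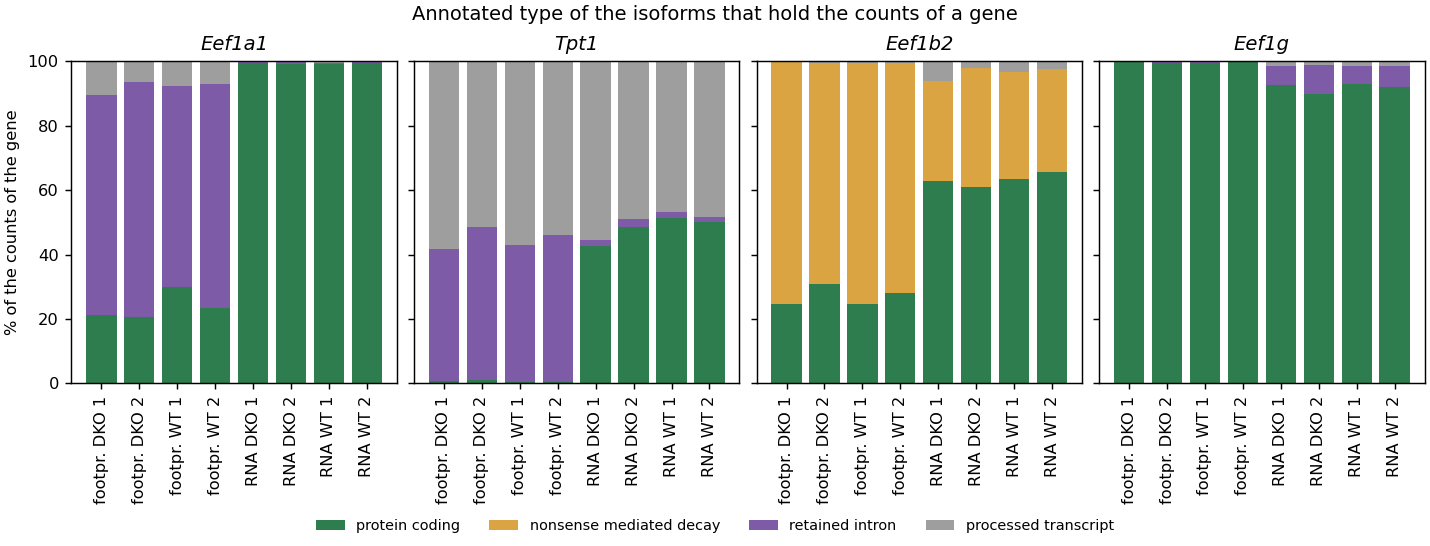
Share of the counts of Eef1a1, Tpt1, Eef1b2 and Eef1g (vertical axis, per cent) on isoforms of each annotated type, in every library, footprints left of RNA and DKO left of WT. In Eef1a1, the isoforms without a coding sequence hold 69.9% to 79.5% of footprints and 0.5% to 0.8% of RNA.

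Copies elsewhere in the genome also bear on these counts. Of the stretches of 28 bases in the coding sequence, 89.4% in Eef1a1 also occurred in 1 or more of 23 annotated pseudogenes, 100% in Tpt1 in 9 pseudogenes and 95.9% in Eef1g in 12. The share was 31.8% in Eef1b2, 31.6% in Eef2, 19.0% in Eef1d, 0.2% in Eef1a2 and 0% in Eef2k. No such stretch of the 8 genes occurred in another gene of the table (0%). Pseudogene reads that lie within the shared stretches, if any, could therefore not be told apart from reads of Eef1a1, Tpt1 and Eef1g. Stretches outside the coding sequence were not searched.

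Related gene groups were counted next, and their counts against RNA are read beside the shares of all tested genes given above, 32.1% higher and 33.3% lower in DKO and 31.4% and 33.8% in WT. Values of single genes of these lists are given without scaling by length, so their direction per coding length is not shown. Of 27 tested genes for other elongation, recycling and elongation factor modification steps, 0 were called between genotypes in footprints, RNA or translational efficiency by edgeR, DESeq2 or limma-voom. In edgeR 1 of them, Eif5a2, had an unadjusted p under 0.05, in footprints (log2 fold change -0.26 ± 0.11). Against RNA, 13 were higher and 10 lower in DKO footprints, and 12 were higher and 9 lower in WT footprints (medians 0.32 and 0.22). Per coding length 12 were higher and 8 lower in DKO, and 11 higher and 9 lower in WT (medians 0.16 and 0.20). Eif5a, the hypusine-modified elongation factor, was higher at 1.88 in DKO and 1.92 in WT, and the rescue factor gene Pelo at 1.97 and 2.04 (edgeR, adjusted p at most 1.17e-07). Eif5a2, its paralog, was lower at -1.50 and -1.35. The diphthamide genes, which modify eEF2, were split, with Dph6 at 1.48 and 1.25 and Dph3 at -1.28 and -1.004. The termination factor gene Gspt1 was higher at 0.92 and 0.79.

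All 5 mitochondrial elongation factor genes differed between footprints and RNA in both genotypes, 3 higher and 2 lower (medians 0.48 in DKO and 0.29 in WT). Per coding length 1 was higher and 3 lower in DKO, and 1 higher and 2 lower in WT, and the medians turned to -0.24 and -0.20. By edgeR, DESeq2 and limma-voom 0 were called between genotypes, and in edgeR 1, Gfm1, had an unadjusted p under 0.05, in RNA (-0.22 ± 0.09). Tufm was higher at 1.20 in DKO and 1.04 in WT, Tsfm at 0.53 and 0.56 and Gfm1 at 0.48 and 0.29. Gfm2 was lower at -0.31 and -0.48, and Guf1 at -3.11 and -3.06. Of 13 genes for regulators of eEF2K, 5 were higher and 1 lower in DKO footprints, and 4 were higher and 1 lower in WT footprints (medians 0.01 and 0.14). Per coding length 9 were higher and 2 lower in DKO, and 9 higher and 3 lower in WT (medians 0.73 and 0.88), beside 37.9% higher and 30.7% lower of all tested genes in DKO and 37.4% and 31% in WT. By the same tools 0 were called between genotypes, and in edgeR 1, the AMP-activated kinase gene Prkaa2, had an unadjusted p under 0.05, in footprints (0.29 ± 0.13). Calm2, a calmodulin gene, was higher at 1.25 and 1.22 and Rps6kb1, which encodes the S6 kinase that inhibits eEF2K, was lower at -1.15 and -1.21. Camk2a was higher at 1.04 and 1.15, the phosphatase subunit gene Ppp2cb at 0.67 and 0.75 and the calmodulin gene Calm3 at 0.37 and 0.38. Rps6ka1 stood at 0.48 in DKO (adjusted p = 0.0156, edgeR) and was not called in WT, and the difference between the genotypes was not called.

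Of 15 tested genes of other TOP mRNAs, 8 were higher and 2 lower in DKO footprints than in RNA, and 9 were higher and 1 lower in WT, with medians of 0.59 in both. Nap1l1 was higher at 1.71 in DKO and 1.77 in WT, Eif3f at 1.15 and 1.34, Npm1 at 0.99 and 0.97, Eif3h at 0.81 and 0.96, Btf3 at 0.76 and 0.82 and Hnrnpa1 at 0.63 and 0.64, while the initiation factor gene Eif4b was lower at -0.80 and -0.72. Per coding length the split of this list was 5 higher and 5 lower in DKO, and 6 higher and 4 lower in WT, with medians of -0.19 and -0.17. Of 81 tested cytosolic ribosomal protein genes, 27 were higher and 13 lower in DKO, and 35 were higher and 10 lower in WT (medians 0.16 and 0.24). Rpl28 was higher at 1.36 and 1.57, Rps13 at 1.25 and 1.55, Rpl6 at 0.96 and 1.01 and Rps16 at 1.02 and 1.14. Rpsa was lower at -1.29 and -1.21 and Rplp0 at -1.33 and -1.07. Per coding length 28 were higher and 32 lower in DKO, and 32 higher and 26 lower in WT.

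Between genotypes 0 of the 15 other TOP genes and 0 of the 81 ribosomal protein genes were called in footprints, RNA or translational efficiency by edgeR, DESeq2 or limma-voom, and 0 had an unadjusted p under 0.05 in edgeR. The RNA median was 0.10 for both lists, with 11 of 15 and 74 of 81 positive, beside 49.6% of all tested genes. The translational efficiency median was -0.06 for the other TOP genes and -0.11 for the ribosomal protein genes. Of the latter 5 of 81 were positive, beside 53.1% of all tested genes. As for the elongation genes, these values turned with 1 library: without the RNA of DKO replicate 1 the RNA median was -0.02 for the other TOP genes and -0.05 for the ribosomal protein genes (19 of 81 positive). The translational efficiency medians were then 0.00 and 0.04. The footprint medians were -0.01 for both lists with all libraries.

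The genes most like 3 of the 8 in pattern were found by the Pearson correlation of log2 CPM over the 8 libraries, centred within each assay, among 9949 genes with a mean of at least 10 CPM. Centred values over so few libraries, which share depth and culture, give high correlations readily, so these are a description. For Eef1a1 they were Zfp874b (0.96), the ribosomal stalk protein gene Rplp2 (0.959) and Zcchc10 (0.958), and 28 genes exceeded 0.9. For Tpt1 they were the ribosomal protein gene Rpl28 (0.981), Eif3f (0.961), an initiation factor subunit gene, and Dusp11 (0.949), with 16 genes above 0.9. For Eef1a2 they were Rab40b (0.993), Cyb561d2 (0.992) and Lingo2 (0.984), with 252 genes above 0.9.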

How the data were processed

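Ribosome footprints (ARTseq kit, per the labels' protocols) and total RNA were measured in 8 libraries. The tools were kallisto, Bowtie, Trimmomatic and FastQC, per the submitters' processing notes, which give no version. Settings, build and strand are details not given in the sources used here. The transcript set is described only by the name of the deposited table. That name points to protein-coding annotation and a limit on transcript support level. The deposited table holds the authors' estimated counts per transcript, which are whole numbers. Of 60528 transcripts, 60444 (99.86%) matched GENCODE M21 (GRCm38), and the other 84, with 0.076% to 0.151% of a library's counts, were left out. kallisto divides reads among isoforms and similar genes, so counts were summed per gene. Cycloheximide before lysis can shift footprints along a transcript.

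All 8 libraries entered 1 edgeR 4.0.16 quasi-likelihood model (limma 3.58.1, R 4.3.3) with 4 group means, TMM scaling, robust dispersions and 4 residual degrees of freedom. Genes passed filterByExpr (minimum count 10) in both assays. Benjamini-Hochberg adjusted p-values under 0.05, over all 12898 genes, were called. The procedure was tested on simulated data. Named genes were the 8 members, up to 6 called genes per list and contrast by p, and the 3 most similar genes of Eef1a1, Eef1a2 and Tpt1. Where no list gene was called, as between genotypes, counts or medians are given, and list genes with an unadjusted p under 0.05 in edgeR are named. Of the genes and sequences these rules name, 1 gene and 1 sequence are not reported here. The members and lists were chosen with earlier results of these data known.

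Footprint and RNA libraries of a culture were paired by the culture codes in the labels, though the footprint and RNA labels spell that of DKO replicate 2 in different ways. Their replicate differences correlated at 0.206 in DKO and 0.672 in WT across genes. DKO and WT share only a number. Results were recomputed with TMM within each assay, RLE scaling, 2 other count filters, DESeq2 1.42.0, limma-voom, fewer libraries, a replicate block, protein-coding isoforms alone, footprints per coding length and leaving out libraries or cultures. A crossed block was added after seeing the data. The 8 genes had 402 to 330599 counts per library.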

Additional observations from a re-analysis of the deposited data

How the results depend on the processing

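No gene of the 8 was called between genotypes under any alternative (smallest adjusted p = 0.219). The culture as a replicate block for footprints against RNA changed no call, with 6 genes called in each genotype and Eef1a2 at 1.14 in DKO and 1.02 in WT. Between genotypes the replicate number as a block called 1 gene of all tested in footprints and 0 in RNA, and with numbers crossed 3 and 7. Without both libraries of WT replicate 1 the counts were 520 and 473, and over the other libraries and cultures left out 0 to 9 and 0 to 7. The number called against RNA in DKO was 3 to 6 over the libraries and cultures left out, lowest without both libraries of DKO replicate 2. With protein-coding isoforms alone, which drops most Eef1a1 footprints, the footprint share of Eef1a2 differed by 8.19 percentage points (DKO minus WT, 32.58% against 24.39%). With the same isoforms, values against RNA were -1.81 for Eef1a1 in WT, -0.695 in DKO and -0.691 in WT for Eef1b2. They were -4.79 in DKO and -5.82 in WT for Tpt1. Tpt1 translational efficiency was 1.03 and Eef1b2 RNA was 0.00 (-0.004). Against RNA in WT, Eef1a1 was -0.19 with TMM within each assay and -0.58 per coding length, and Eef2 was -0.22, -0.71 and, with a mean count of at least 50, -0.016. Over libraries left out, signs turned for Eef1a1 in RNA (-0.036 to 0.342), in footprints (-0.176 to 0.065) and against RNA in DKO (-0.355 to 0.017) and WT (-0.074 to 0.158), and for Eef2 against RNA in DKO (-0.187 to 0.095) and WT (-0.047 to 0.12). They turned in RNA for Eef1a2 (-0.045 to 0.205), Eef1b2 (-0.083 to 0.164), Eef1g (-0.043 to 0.173), Eef2k (-0.052 to 0.079, and in footprints -0.091 to 0.045) and Tpt1 (-0.026 to 0.398). They turned in translational efficiency for Eef1a2 (-0.039 to 0.272), Eef1d (-0.176 to 0.068), Eef1g (-0.09 to 0.12), Eef2 (-0.219 to 0.061), Eef2k (-0.156 to 0.097) and Tpt1 (-0.35 to 0.063). The causes were not tested. With 2 cultures a genotype, an SE near 0.13 limits what can be seen.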
